A study of Mus musculus with 6 samples.

Results

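mmu-miR-196a-5p, mmu-miR-196b-5p, mmu-miR-10a-5p and mmu-miR-10b-5p, the mouse (mmu) 5p arms, are the microRNAs (miRNAs) considered here, chosen by name because their genes lie inside the Hox clusters. They are 4 of the 707 miRNA names in a count table of exosomes, the small vesicles that cells release, from supernatants of mouse bone marrow-derived macrophages. There were 3 san:san libraries, from macrophages with the Roquin-1 san:san genotype, and 3 WT libraries. All 6 came from the C57BL/6 strain, and both groups were macrophage cultures with no further agent named. Roquin-1 is a protein that binds folded elements of certain messenger RNAs and speeds their breakdown, and san stands for sanroque, a mutant allele of the gene, carried here on both copies. The labels name neither ages nor whether replicates were separate mice or repeated cultures, so p-values reflect only how these samples vary, and that variation may be technical. The comparison asks how the exosomal level of each miRNA differs between the genotypes.

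Hox genes encode transcription factors that give cells their position along the body axis, and in blood formation several of them mark stem and progenitor cells. The miRNA genes between them are transcribed with their neighbours and can act back on the clusters: miR-196 directs cleavage and repression of Hoxb8 messenger RNA in the mouse embryo, and miR-196b is known as a miRNA of mouse haematopoietic progenitors that declines on differentiation. miR-10a is known as a restraint on NF-κB signalling in endothelium, and miR-10b for its role in invasion of human breast cancer cells through HOXD10. No messenger RNA was analysed here, so these roles stand as background only.

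The mature sequences are shown because the members fall into 2 seed families and differ by 1 base within each. They are RefSeq sequences on build GRCm38.p6, written 5′ to 3′ with the seed, bases 2 to 8, in capitals.
miR-196a-5p: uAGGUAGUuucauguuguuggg
miR-196b-5p: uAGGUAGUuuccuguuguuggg
miR-10a-5p: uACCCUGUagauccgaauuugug
miR-10b-5p: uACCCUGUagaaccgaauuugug
Counted from 1 at the 5′ end, with the first-named member's base first, miR-196a-5p and miR-196b-5p differ at A12C and miR-10a-5p and miR-10b-5p at U12A. Of the 573 names in the count table that matched a RefSeq mature sequence, 2 carried the miR-196 seed and 2 the miR-10 seed, in each case the members themselves. A read with 1 sequencing error at base 12 could be given to the partner, so levels of single members are less certain than the sum over a pair. Both pairs had different counts in every library.

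For reference, 2 relatives from outside the Hox clusters are shown with their seeds in capitals.
let-7a-5p: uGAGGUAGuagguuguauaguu
miR-100-5p: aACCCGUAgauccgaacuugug
The run AGGUAGU that forms the miR-196 seed begins at base 3 in 8 names of the table, 7 let-7 names and miR-98-5p. The first 4 bases of the miR-10 seed are shared by miR-99a-5p, miR-99b-5p and miR-100-5p.

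The gene of miR-196b is on chromosome 6 (chr6:52230081-52230165, minus strand), in an intron of an annotated Hoxa9 transcript and 1032 bases from Hoxa10 in the GENCODE annotation of GRCm38. The miR-10a gene lies between Hoxb5 and Hoxb4 on chromosome 11 (chr11:96317165-96317274, plus strand), outside coding genes, 993 bases from Hoxb4. The miR-10b gene on chromosome 2 (chr2:74726070-74726137, plus strand) lies in introns of transcripts of Hoxd3 and Hoxd4. The authors' build was mm9, and these coordinates are those of the annotation, not of their reads.

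Mature miR-196a-5p comes from 2 genes, whose hairpins are shown, with the mature arm in capitals, because the arm is identical in both and its reads cannot be assigned to either.
Mir196a-1: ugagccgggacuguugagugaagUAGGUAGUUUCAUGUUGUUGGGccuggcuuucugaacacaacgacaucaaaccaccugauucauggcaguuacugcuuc
Mir196a-2: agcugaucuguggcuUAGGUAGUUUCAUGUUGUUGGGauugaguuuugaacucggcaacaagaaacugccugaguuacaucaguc
Mir196a-1 (chr11:96265164-96265265, plus strand) lies outside coding genes, 6192 bases from Hoxb9. Mir196a-2 (chr15:102973350-102973434, plus strand) lies in an intron of a long Hoxc5 transcript, between Hoxc10 and Hoxc9.

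The san:san libraries held 185901, 160588 and 126098 miRNA counts and the WT libraries 12447, 28884 and 21754, so every san:san library was deeper. Genotype and depth cannot be told apart in this design. Levels below are CPM, counts scaled to a common library total with TMM factors, and are relative: fewer vesicles of a kind and less of a miRNA per vesicle cannot be told apart. A single count was worth 6.31 to 10.2 scaled CPM in san:san and 27.8 to 69.5 in WT.

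The 2 miR-196 members fell in san:san exosomes whereas miR-10b-5p did not pass the test and miR-10a-5p was too low to enter it. The filter on low counts is a CPM level set by 10 counts in a library of median depth, so fewer counts meet it in the shallower WT libraries. The miR-196 members met it in every WT library but not in every san:san library. Of the 4, 3 passed this filter (miR-10a-5p did not), and 2 of these 3 were lower by edgeR's quasi-likelihood test at a threshold of 0.05 on the adjusted p. Over all 254 miRNAs tested, 29.5% were lower by the same rule, 34.6% were higher and 64.2% differed in either direction, so a call by itself was common in this comparison.

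miR-196a-5p had 19, 38 and 9 counts in the san:san libraries, against 70, 157 and 113 in the WT libraries. The raw counts were thus lower in every san:san library although those libraries were deeper. Scaled, it stood at 120, 286 and 92.2 CPM in san:san and at 4868, 4357 and 4093 CPM in WT. The WT libraries lay close together and the groups did not overlap, as was so for 31.1% of tested miRNAs in the downward direction. The mean was 166 ± 105 CPM in san:san and 4439 ± 394 CPM in WT (SD, n = 3 each). miR-196a-5p fell by 4.70 ± 0.33 on the log2 scale (SE, edgeR adjusted p = 6.03e-08), which is 25.9-fold, and was 18th from the lowest of the 254 log2 changes.

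Within san:san, replicate 2 stood above the others by more than counting error. The 95% Poisson interval of miR-196a-5p, which covers counting error only, ran from 202 to 392 CPM in san:san replicate 2. It ran from 72.1 to 187 CPM in replicate 1 and from 42.2 to 175 CPM in replicate 3, both below that of replicate 2. All 3 intervals were far below the lowest WT bound, 3373 CPM in WT replicate 3.

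miR-196b-5p, the member transcribed from the Hoxa cluster, moved in the same direction. It had 9, 8 and 12 counts in san:san, against 17, 49 and 45 in WT. In scaled units these were 56.8, 60.2 and 123 CPM in san:san and 1182, 1360 and 1630 CPM in WT, without overlap. The mean was 80.0 ± 37.2 CPM in san:san and 1391 ± 225 CPM in WT (SD, n = 3 each). It fell by 4.19 ± 0.32 on the log2 scale (SE, edgeR adjusted p = 1.22e-07), 18.3-fold, 26th from the lowest.

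**Figure D1:**
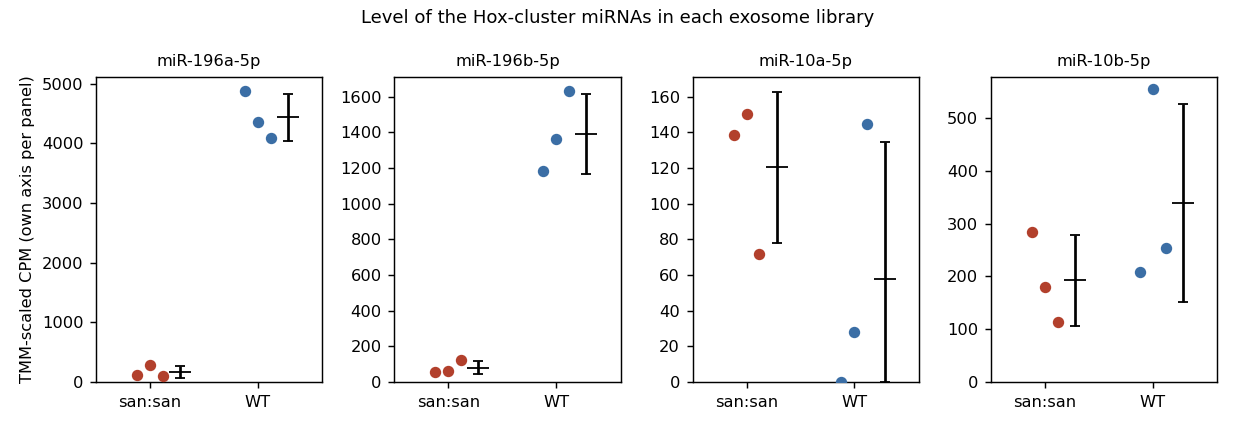
TMM-scaled CPM of each of the 4 miRNAs in the 3 san:san (red, left) and 3 WT (blue, right) libraries. Each point is a library, bars are the mean ± SD with the lower end stopped at 0, and each panel has its own linear axis from 0. Points of miR-196a-5p and miR-196b-5p separate by genotype and those of miR-10a-5p and miR-10b-5p overlap.

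miR-10b-5p, from the Hoxd cluster, had 45, 24 and 11 counts in san:san, against 3, 20 and 7 in WT. It stood at 284, 181 and 113 CPM in san:san and at 209, 555 and 254 CPM in WT. San:san replicate 1 lay above 2 of the WT libraries, and WT replicate 2 was the highest of all 6. Its log2 change was -0.90 ± 0.49 (SE, edgeR adjusted p = 0.127). This value rested on WT replicate 2, without which it was -0.34 (adjusted p = 0.695). The call depended on the setting: miR-10b-5p was lower at an adjusted p of 0.0495 with RLE factors (log2 -1.14), of 0.0219 with total counts (-1.48) and of 0.0449 without WT replicate 1 (-1.14).

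miR-10a-5p, from the Hoxb cluster, was the scarcest member in WT and too low to test. It had 22, 20 and 7 counts in san:san, against 0, 1 and 4 in WT, or 139, 150 and 71.7 CPM in san:san and 0, 27.8 and 145 CPM in WT. WT replicate 3 lay among the san:san libraries. The count of 0 in WT replicate 1 allows up to 209 scaled CPM, taking 3 counts as the limit. It therefore does not exclude a level like that of san:san there. Counts were also summed over each genotype and divided by the summed TMM-scaled library sizes of that genotype. The ratio of these, san:san over WT, was 1.96 with a 95% exact counting interval of 0.787 to 6.32, an interval that includes no difference. Tested without the count filter, miR-10a-5p had a log2 change of 1.07 ± 0.75 (SE, edgeR adjusted p = 0.279).

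The order of the members by scaled level differed between the genotypes as a description. In WT it was miR-196a-5p, miR-196b-5p, miR-10b-5p, miR-10a-5p, and the libraries of neighbours in this order did not overlap. In san:san it was miR-10b-5p with a mean of 192 CPM, miR-196a-5p, miR-10a-5p with 120 CPM and miR-196b-5p, and every neighbouring pair overlapped. By count rank among all names, miR-196a-5p was 216th, 164th and 237th in san:san and 36th, 38th and 38th in WT. miR-10b-5p was 154th, 188th and 224th in san:san and 186th, 134th and 193rd in WT, so its rank overlapped between the genotypes.

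**Figure D2:**
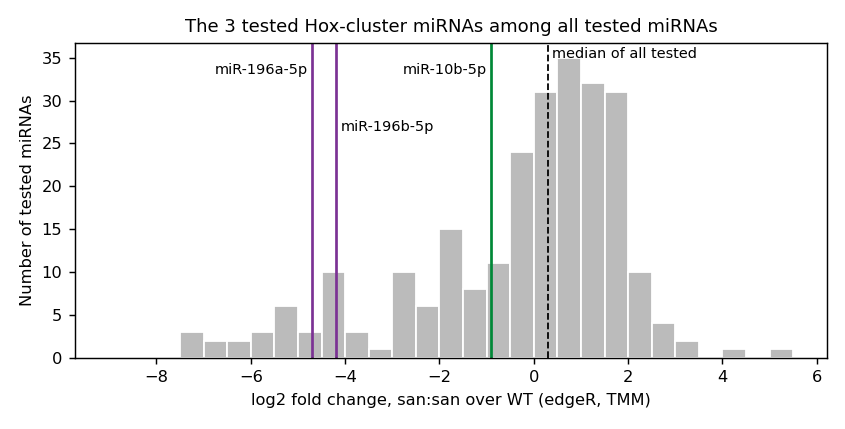
Histogram of the log2 fold change, san:san over WT, of the 254 tested miRNAs (edgeR, TMM), with lines for the 3 tested Hox-cluster miRNAs and a dashed line at the median of all, 0.30. The miR-196 members, at -4.70 and -4.19, lie in a lower group of 29 miRNAs below -4, and miR-10b-5p, at -0.90, lies nearer the median.

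The make-up of the 4-miRNA total separated the genotypes without any scaling between libraries. The miR-196 members made up 29.5% (95% Wilson interval 21.2 to 39.3), 51.1% (41.0 to 61.2) and 53.8% (38.6 to 68.4) of it in san:san. In WT they made up 96.7% (90.7 to 98.9), 90.7% (86.3 to 93.9) and 93.5% (88.7 to 96.3). The means were 44.8% ± 13.4 in san:san and 93.6% ± 2.96 in WT (SD, n = 3 each). In the log2 ratio of the summed miR-196 to the summed miR-10 counts, san:san libraries averaged -0.31 ± 0.77 and WT libraries 3.96 ± 0.77. The difference of -4.27 had a two-sided exact permutation p = 0.1, and 3 against 3 can give none smaller (0.175 adjusted over the 7 exact tests made). This is a 19.3-fold difference in shift between the families, with all 3 san:san libraries below all 3 WT libraries, and this design cannot bring its p under 0.05.

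**Figure D3:**
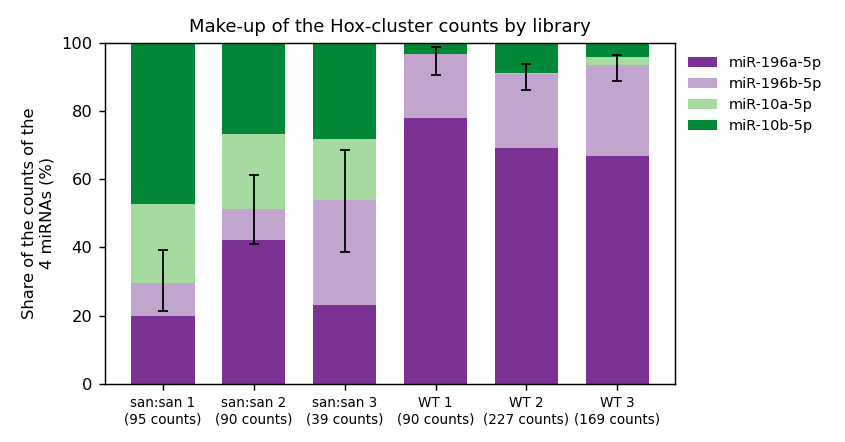
Share of the summed counts of the 4 miRNAs, in percent, held by each miRNA in the 3 san:san (left) and 3 WT (right) libraries, with the summed counts under each bar. Black bars are 95% Wilson intervals of the miR-196 share, which lies between 29.5% and 53.8% in san:san and between 90.7% and 96.7% in WT.

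As a share of all miRNA counts, the seed families can be read as pools. The miR-196 seed pool was 0.0201% ± 0.00743 in san:san and 0.713% ± 0.0137 in WT (SD, n = 3 each; exact permutation p = 0.1, 0.175 adjusted). The miR-10 seed pool was 0.0259% ± 0.0110 in san:san and 0.0491% ± 0.0243 in WT, with overlap (exact permutation p = 0.3, 0.3 adjusted). All 4 together held 0.0460% ± 0.0133 in san:san and 0.762% ± 0.0340 in WT (exact permutation p = 0.1, 0.175 adjusted).

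Within each pair the groups of 3 cannot give an exact p under 0.1, and neither ratio reached it. The miR-196a-5p count was 2.11, 4.75 and 0.75 times that of miR-196b-5p in san:san and 4.12, 3.20 and 2.51 times in WT, so miR-196a-5p was the higher in 5 of 6 libraries and the groups overlapped. The log2 ratio averaged 0.86 ± 1.20 in san:san and 1.68 ± 0.35 in WT, a difference of -0.82 (SD, n = 3 each, exact permutation p = 0.3, 0.3 adjusted). The miR-10a-5p count was below that of miR-10b-5p in all 6 libraries. Their log2 ratio averaged -0.59 ± 0.36 in san:san and -3.07 ± 2.01 in WT, a difference of 2.48 or 5.57-fold (exact permutation p = 0.2, 0.28 adjusted), the WT value resting on 5 counts of miR-10a-5p in all.

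The other arms of the same hairpins and miR-615, whose gene lies in the Hoxc5 transcript unit, were scarce. Of 7 such names 5 were in the table and 1 passed the count filter. That one, miR-615-5p, had 3, 0 and 3 counts in san:san, against 2, 9 and 7 in WT, and fell by 3.75 ± 0.66 on the log2 scale (SE, edgeR adjusted p = 2.15e-04). It met the filter only in WT, the group where it was higher, so its test is not separate support for a fall. With any san:san library left out the median library was shallower, so the CPM cutoff of the filter rose and miR-615-5p fell below it. Its partner miR-615-3p had 0, 2 and 3 counts in san:san, against 5, 11 and 2 in WT. The WT over san:san ratio of summed counts, each divided by the summed scaled library sizes, was 18.0 with a counting interval of 6.42 to 61.9. Without the count filter the log2 change of miR-615-3p was -3.85 (edgeR adjusted p = 2.91e-06), resting on 5 counts over san:san.

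The minor arm miR-10b-3p had 7, 3 and 1 counts in san:san, against 2, 10 and 2 in WT, and its scaled levels did not overlap. Its WT over san:san ratio was 6.35 (2.68 to 15.5), and without the count filter its log2 change was -2.45 (edgeR adjusted p = 0.00274). With the count filter it was tested only when a WT library was left out. Its edgeR adjusted p was then 0.00419 without WT replicate 1, 0.00219 without WT replicate 3 and 0.151 without WT replicate 2 (log2 -1.83). Its major partner miR-10b-5p had an adjusted p of 0.187 in the fit without the count filter, and the difference between the arms was not tested. miR-10a-3p had 16 counts over san:san and 6 over WT, a WT over san:san ratio of 1.87 (0.599 to 5.03). miR-196a-2-3p had 1 count in WT replicate 2 and 0 elsewhere.

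The relatives outside the clusters had smaller log2 changes than the miR-196 members, a comparison that was not tested. Of the 11 names on the list of miR-196 relatives, let-7 names and miR-98-5p, 10 were tested, 4 fell, 0 rose and 6 did not pass, beside 29.5% lower over all tested miRNAs. With total counts 6 of the 10 were lower, beside 101 of all 254 tested miRNAs. With TMM the median log2 change was -0.24 for the list and 0.30 for all tested miRNAs. let-7c-5p, one of the growth-restraining let-7 family, averaged 5609 ± 251 CPM in san:san and 14622 ± 1934 CPM in WT (log2 -1.38 ± 0.19, edgeR adjusted p = 2.87e-05). The others that fell were let-7e-5p (log2 -0.93), let-7b-5p (-0.66) and let-7k (-1.23). let-7e-5p and let-7k are not among the 8 names with the run AGGUAGU at base 3. The call of let-7k ended without WT replicate 2 (adjusted p = 0.167) and that of let-7b-5p with no count filter (0.0852).

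Of the 5 miR-10 relatives 4 were tested, 1 rose, 1 fell and 2 did not pass, with a median of 0.04. Over all tested miRNAs 34.6% were higher and 29.5% lower, with a median of 0.30. miR-125b-5p, known for steering blood cell development, averaged 1758 ± 56.1 CPM in san:san and 6529 ± 1173 CPM in WT (log2 -1.90 ± 0.20, edgeR adjusted p = 2.32e-06). miR-99a-5p, whose first seed bases match miR-10, had 29, 25 and 25 counts in san:san, against 0, 4 and 1 in WT (log2 1.68, adjusted p = 0.0374), a call that ended under 6 of 11 alternatives, with total counts (0.177), without WT replicate 1 (0.0920) and without WT replicate 3 (0.131) among them. miR-125a-5p stood at log2 0.21 and miR-99b-5p at -0.12 (adjusted p = 0.337 and 0.653), values whose sign turned under other settings.

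The profile of each tested member over the 6 libraries was set beside all other tested miRNAs by the root mean square difference of centred log2 CPM. The 5 nearest to miR-196a-5p were miR-3473f (0.33), miR-193a-5p (0.33), miR-3473b (0.38), miR-31-5p (0.40) and miR-3960 (0.41), against a median of 2.62 for all tested. The 5 nearest to miR-196b-5p were miR-1249-5p (0.27), miR-125b-1-3p (0.30), miR-709 (0.32), miR-125a-3p (0.32) and miR-1946b (0.36), with a median of 2.12. For miR-10b-5p they were miR-214-3p (0.27), let-7i-3p (0.38), miR-532-3p (0.40), miR-27a-3p (0.43) and miR-500-3p (0.48), with a median of 1.08. Of the 10 names nearest to the miR-196 members, 6 had between 1 and 6 counts over all san:san libraries. At such counts, with a prior count of 2 in the log2 CPM, a small distance does not show a like fold change. Of the other neighbours, miR-31-5p had 33 counts over san:san and 266 over WT. miR-193a-5p had 39 over san:san and 155 over WT, and miR-214-3p 581 over san:san and 211 over WT.

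Markers of macrophages and of further cell types also differed between genotypes, and their part in the results above was not tested. Macrophage and myeloid miRNAs held 10.9% to 12.3% of counts in san:san and 5.56% to 6.60% in WT, with 6 of 7 tested higher, beside 34.6% over all tested miRNAs, and all 9 detected in both genotypes. Erythroid miRNAs held 15.6% to 17.9% in san:san and 3.84% to 6.25% in WT (4 of 5 higher). Among them miR-486a-5p and miR-486b-5p had identical counts, which enter these shares under both names. With identical rows merged, 3 of 4 erythroid miRNAs were higher. Lymphocyte miRNAs held 1.49% to 2.02% in san:san and 0.499% to 0.675% in WT (1 of 2 higher), and endothelial miRNAs 3.37% to 6.96% in san:san and 1.82% to 3.69% in WT (2 of 2 higher). Stromal miRNAs held 1.09% to 1.18% in san:san and 0.964% to 1.58% in WT (3 of 7 higher, 1 lower), and liver and gut miRNAs 0.566% to 0.780% in san:san and 0.584% to 0.786% in WT (3 of 4 higher). With total counts these became 3 of 7 higher for macrophage and myeloid, 1 of 4 for liver and gut, and 1 of 7 higher and 2 lower for stromal miRNAs. Under that setting 49 of all 254 tested miRNAs were higher and 101 lower. Neural miRNAs, 1 of 3 higher and 2 lower, held 0.0990% to 0.115% in san:san and 0.138% to 0.163% in WT, miR-9-5p among the lowered ones. Epithelial miRNAs held at most 0.0127% in san:san and 0.0138% in WT, and muscle miRNAs at most 0.00872% in san:san and 0.0312% in WT, with 0 tested. At 0 in all WT libraries were miR-200a-3p, miR-200b-3p, miR-200c-3p, miR-141-3p, miR-429-3p, miR-133a-3p, miR-133b-3p, miR-499-5p and the liver and gut miRNA miR-215-5p. Every WT library was shallower than every san:san library, so a count of 0 in WT does not show absence.

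**Figure D4:**
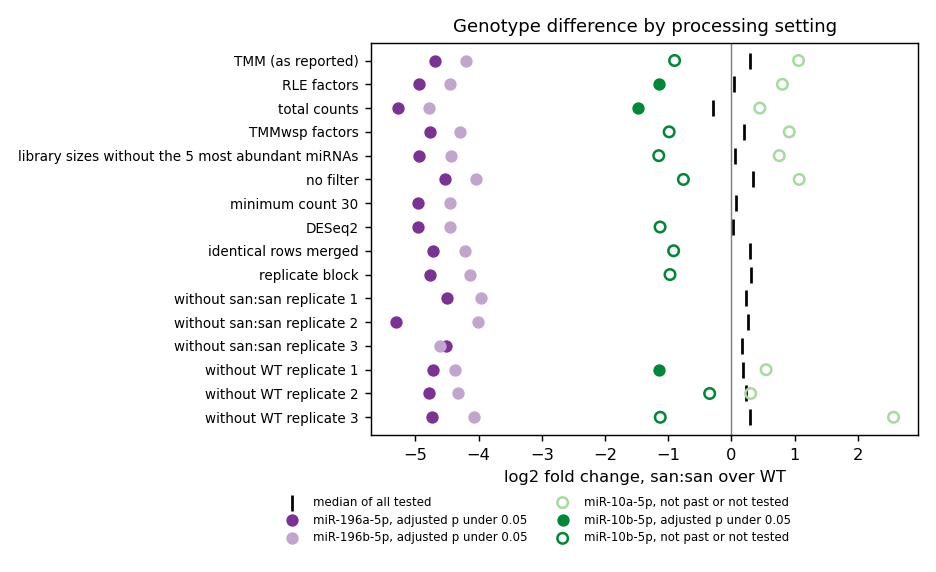
Log2 fold change, san:san over WT, of the 4 miRNAs (colours) under each processing setting, with black ticks for the median of all tested miRNAs. Filled points passed an adjusted p of 0.05 and open points did not pass or were not tested. miR-196a-5p stays between -5.31 and -4.50 and miR-196b-5p between -4.78 and -3.97, filled throughout, while miR-10b-5p is filled in 3 settings.

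The scaling moved all miRNAs together. The median log2 change of the tested miRNAs was 0.30 with TMM, 0.04 with RLE factors and -0.29 with total counts. Set against that median, miR-196a-5p stood at -4.99, -4.98 and -4.98 under these 3 scalings, miR-196b-5p at -4.49 under each, and miR-10b-5p at -1.19 under each.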

How the data were processed

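Small RNA libraries of macrophage exosomes from 3 san:san and 3 WT samples were compared, with groups and numbers from the titles. RNA was taken with Trizol and libraries followed Illumina procedures, per the labels' protocols. The submitters' processing notes give mm9 as the build. For the aligner, the read filters and the miRNA annotation, nothing was stated in the labels or file headers. The authors deposited whole-number counts per mature miRNA for all 6 libraries, which were used as deposited. The scaled per-sample files were not used here.

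edgeR 4.0.16 (R 4.3.3) was run over the whole table with filterByExpr at a minimum count of 10, TMM scaling, robust quasi-likelihood dispersions and no term besides genotype, and p-values were adjusted by Benjamini-Hochberg over 254 miRNAs. The minimum count applies at the median library size, and the CPM level it sets must be reached in as many libraries as the smaller group holds. The SE is the log2 change divided by the root of the F statistic. Ratios within a library used a pseudocount in proportion to library size, with a mean of 1, and two-sided exact permutation tests. Profile distances used a prior count of 2. Low counts limit precision, and counting intervals cover counting error only. The edgeR procedure was checked on simulated counts. There a smaller share of miRNAs changed, equally in both directions and by less than the miR-196 members did here. The check therefore does not cover a comparison with as many and as large changes as this one.

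The members and lists were chosen with earlier results of these data known, so counts over them are descriptions. The miRNAs named were the 4 members, other Hox-cluster arms, up to 4 relatives per list by p, and the 5 nearest profiles per tested member. Marker miRNAs named beyond these were chosen after their values were seen. Alternatives were RLE, TMMwsp and total-count scaling, totals that omit the 5 most abundant names, no filter, a minimum count of 30, DESeq2 1.42.0, merged identical rows (at least 20 counts), a replicate block, other pseudocounts, and leaving out each library.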

Additional observations from a re-analysis of the deposited data

How the results depend on the processing

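miR-196a-5p and miR-196b-5p kept their direction and call under all 15 alternatives each. With a library left out, miR-196a-5p was between -5.31 and -4.50 (log2) and miR-196b-5p between -4.61 and -3.97. miR-10b-5p stayed below 0 and gained a call with RLE factors (-1.14) and total counts (-1.48), and was between -1.14 and -0.34 with a WT library left out, where 1 of 3 fits called it. It fell below the count filter at a minimum count of 30, and with any san:san library left out, where the shallower median library raised the cutoff. miR-10a-5p stayed above 0, between 0.31 and 2.57 with a WT library left out, and passed in none of the 4 fits that tested it. The number of miRNAs called higher was 88 and moved to 49 with total counts, which made the split 49 higher and 101 lower against 88 and 75, with 76 and 86 under RLE factors, 73 and 85 without the 5 most abundant miRNAs, 64 and 82 under DESeq2 and 102 and 105 with no filter. Leaving out 1 library gave 68 to 90 higher and 62 to 85 lower.

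The log2 difference in the miR-196 over miR-10 ratio was between -4.62 and -3.82, that of miR-196a over miR-196b between -1.40 and -0.22, that of miR-10a over miR-10b between 1.78 and 3.74, and that of the share held by the 4 miRNAs between -0.735 and -0.704 percentage points with a library left out. The ratio of miR-10a to miR-10b without a pseudocount was not computed, since 1 count is 0. Among the 27 other miRNAs named by rule, 327 of 368 refits counted as unchanged, 17 gained a call, 15 lost one, 8 reversed and 1 moved. Unchanged means the same direction and call. For names untested in the main fit, it means the same direction, no call and a log2 change within the spread between libraries. The 1 that moved went beyond that spread. The 8 reversals were miR-125a-5p with RLE factors (-0.045), with total counts (-0.37), with totals that omit the 5 most abundant names (-0.038), with a minimum count of 30 (-0.048) and DESeq2 (-0.044), and miR-99b-5p with no filter (0.0071), without san:san replicate 2 (0.017) and without WT replicate 2 (0.067), with a range of -0.32 to 0.067 over the left-out libraries. The cause was not tested.

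Samples with the same replicate number correlated in their deviations at 0.10, -0.08 and 0.26 for numbers 1, 2 and 3, and san:san replicates 1 and 3 correlated best with the WT replicate of their own number but replicate 2 with WT replicate 1. Since not every value was over 0.1, they were taken to share only a number. With the replicate block 90 miRNAs were higher and 71 lower, and the log2 changes were -4.78 for miR-196a-5p, -4.14 for miR-196b-5p and -0.97 for miR-10b-5p.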
